A study of Gallus gallus with 4 samples.

Results

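Neurotransmitter receptors were measured in the optic tectum of chick embryos (Gallus gallus), the part of the midbrain to which retinal axons project. The genes were taken by a rule on the names and descriptions of the array probes, covering GABA, glycine, glutamate, acetylcholine, adrenaline, serotonin and dopamine receptors, with the brightest probe standing for each gene. The rule found 47 probes of 45 genes among 42034 gene probes of 40239 genes or unnamed features. Of these 45, 43 are receptors in 11 classes. The remaining 2, DNAJC14 and an NMDA-like 1A feature, carry the wording of the rule in their descriptions without being receptors by it. They belong to no receptor class, but counts over all genes of the rule, called receptors below, include them.

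Each tectum was bisected across 1 axis, and 60 pieces of the same side were pooled into 1 RNA sample. Each of the 4 groups was 1 array of 2 colours, with 1 pool in the Cy5 channel and the pool of the opposite side in the Cy3 channel. The groups were medial against lateral tectum at HH30 and at HH35, and posterior against anterior tectum at HH35 and at HH37, in the Hamburger-Hamilton staging of the chick. The embryos were otherwise untreated as far as the labels say, and their strain and sex are not given there. No pool was repeated and no dyes were swapped, so a ratio on 1 array has no replicate, and a dye effect cannot be told apart from a difference between the pools. Every ratio below is the Cy5 signal over the Cy3 signal on the log2 scale. Posterior RNA was in Cy5 on the anteroposterior arrays, so a ratio below 0 means a higher signal in the anterior pool. On the mediolateral arrays the dyes in the labels and the direction of the authors' deposited table disagree on which side was Cy5, and the pools are therefore called Cy5 and Cy3.

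Neurotransmitter receptors are membrane proteins that bind transmitter released at synapses. Ionotropic receptors are channels built of several subunits: GABA-A and glycine receptors pass chloride, while AMPA, kainate, NMDA and nicotinic receptors pass cations. Metabotropic receptors act through G proteins. In the tectum, retinal axons release glutamate, local interneurons use GABA, and the isthmic nuclei send cholinergic and GABAergic axons.

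A probe counted as measured on an array where its mean signal exceeded the local background by more than 2.6 SD of that background in at least 1 channel. The median signal of a gene probe lay between 99 and 229 intensity units per channel, and between 63.2% and 79.5% of gene probes were measured on an array, the lowest share being on the anteroposterior array at HH37. In levels, the mean log2 intensity of both channels scaled between arrays, the 2 arrays of HH35 did not resemble each other most. They were at least 2-fold apart in 29.9% of 26768 features, against 13.6% between the anteroposterior array at HH35 and the mediolateral array at HH30, and 12.6% between the anteroposterior array at HH37 and the mediolateral array at HH35. Levels at different stages are therefore given array by array. Markers of maturing neurons, among them MAP1B, SYT1, DCX, NEFL and SNAP25, were present, with 11 or 12 of 12 measured on each array.

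Most receptors gave a signal. Of the 45 genes, 29 were measured on all 4 arrays, 7 on 3, 3 on 2, 2 on 1 and 4 on none. The 4 that were not above the limit on any array were CHRNA1, a subunit of the muscle nicotinic receptor, the neuronal nicotinic subunits CHRNA3 and CHRNB3, and a kainate 1-like feature. CHRNA9 was measured at HH35 on the anteroposterior array only, in the anterior channel, and a mGluR7-like feature on the same array in both channels. No spot of any of these genes held saturated pixels. On single arrays the receptors were measured 39, 33, 35 and 38 times, in the order anteroposterior HH35, anteroposterior HH37, mediolateral HH30 and mediolateral HH35, which is the order of every run of 4 values below. A ratio with only 1 channel above the limit takes the other channel at a value not told from background. Its size is uncertain, and any fold drawn from it is marked.

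Across the arrays, the receptors leaned to the anterior pool at HH37 and to the Cy5 pool of the mediolateral array at HH30. At HH37, 24 of 33 were higher in the anterior pool, where 52.5% of all measured features were, and their median ratio was -0.32 against -0.02 for all features. At HH30, 30 of 35 were higher in the Cy5 pool, where 47% of all features were, with a median of 0.23 against -0.02. The other arrays lay closer to the background. At HH35, 23 of 39 were higher anteriorly, against 51.6% of features, with a median of -0.06 against -0.01. On the mediolateral array at HH35, 23 of 38 were higher in the Cy3 pool, against 52.6% of features, with a median of -0.05 against -0.02. With median centring in place of loess, 28 of 33 receptors were anterior at HH37, against 73.1% of all features. The median of all features itself moved to -0.19. The receptors' median was 0.30 below that of all features with loess and 0.32 below it with median centring.

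**Figure D1:**
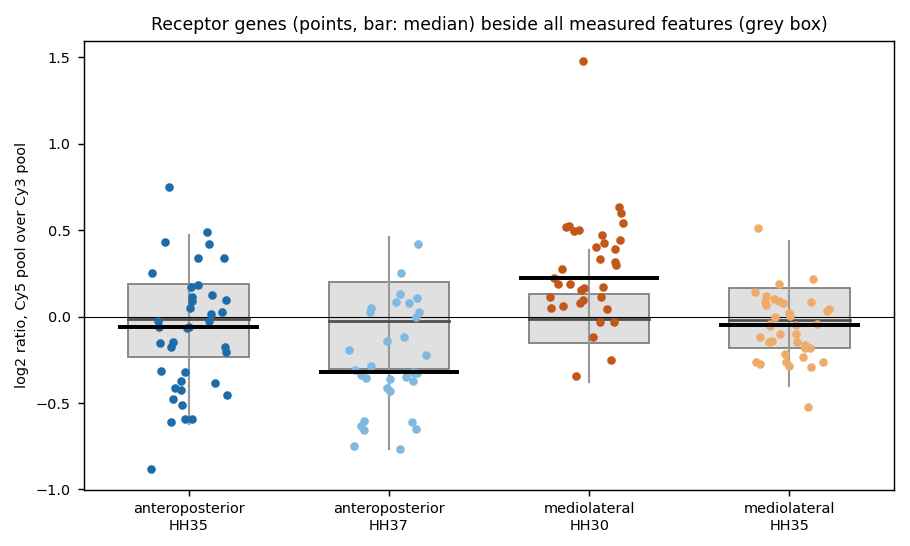
Log2 ratio of Cy5 over Cy3 for each measured receptor gene (coloured points, spread sideways at random; black bar, median) on the 4 arrays, beside all measured features (grey box, quartiles; line, 5th to 95th percentile). The receptor median lies at -0.32 on the anteroposterior array at HH37 and at 0.23 on the mediolateral array at HH30, and close to that of all features on both HH35 arrays.

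No receptor passed the test along either axis. Over both arrays of an axis, limma with Benjamini-Hochberg adjustment over 30305 features called 0 of 39 tested receptors on the anteroposterior axis, where it called 2.75% of all features. It called 0 of 39 on the mediolateral axis, where it called 0.0066% of features, and 0 of 39 in the contrast of the axes, where it called 0% of features. At an unadjusted p under 0.05 there were 11 of 39 receptors on the anteroposterior axis, or 28.2%, against 23.3% of all features. There were 3 on the mediolateral axis, or 7.69% against 7.75%, and 10 in the contrast of the axes, or 25.6% against 8.25%. Both counts fell without the mediolateral array at HH30 and rose without that at HH35. The mediolateral count also rose without either anteroposterior array. Such fits leave an axis with a single array, and the shares of all features in them were not counted. On the mediolateral arrays the receptors' median ratio was 0.23 at HH30 and -0.05 at HH35. In the contrast of the axes 32 of 39 receptors lay below 0, against 53.8% of features. The axes share only the stage HH35, so axis and stage cannot be told apart in this contrast. At HH35, 36 receptors were measured on the arrays of both axes. Of these, 18 had a higher ratio on the mediolateral array than on the anteroposterior one, and 18 a lower ratio. The median change to the mediolateral array was -0.02, against 0.01 for all features. The lean of the contrast was thus not seen at HH35. The mean anteroposterior ratio was below 0 for 30 of 39 receptors, against 51.4% of features, with a median of -0.17 against -0.01. On the mediolateral arrays 32 of 39 means lay above 0, with a median of 0.10 against -0.01 for all features. Below 0 lay 17.9% of the receptors, against 52.3% of features. The 6 receptors left out of the test were CHRNA1, CHRNA3, CHRNA9, CHRNB3, the kainate 1-like and the mGluR7-like feature.

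Only 1 receptor ratio reached 2-fold. The probe labelled GABRB1, a GABA-A subunit whose identity is not settled, stood at 1.48 on the mediolateral array at HH30. GABRB1 is therefore used as a label of this probe only. On that array 0.327% of all features differed at least 2-fold, and 0.263% did so toward Cy5. On the other 3 arrays no receptor reached it, where 0.784%, 1.87% and 0.095% of features did.

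**Figure D2:**
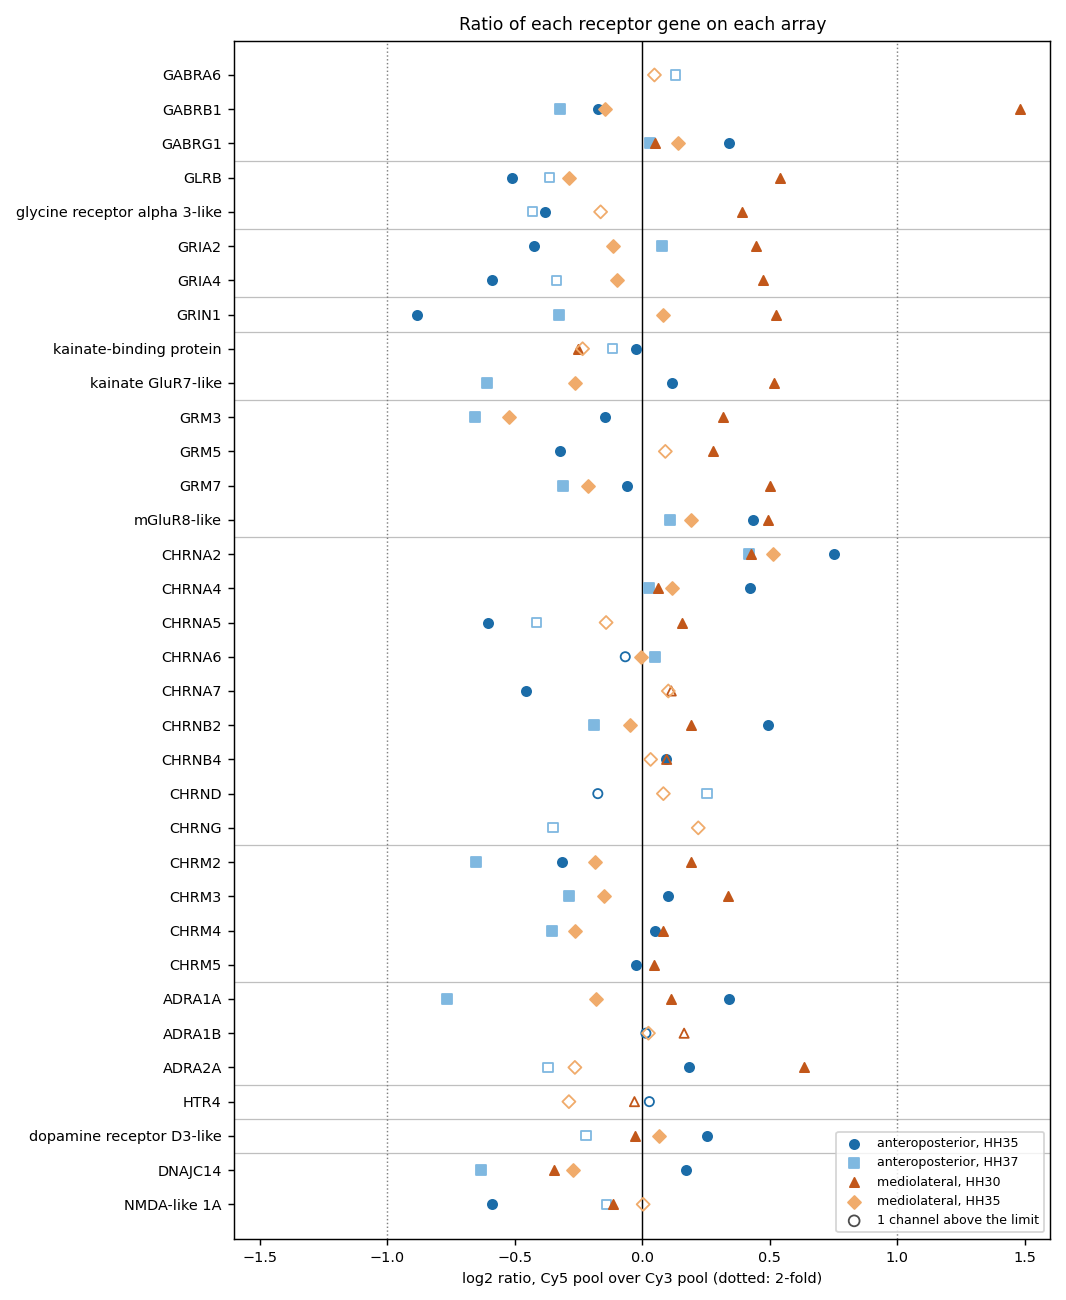
Log2 ratio of Cy5 over Cy3 for 34 of the 39 receptor genes measured on at least 2 arrays, 1 line per gene, grouped by receptor class. Filled symbols had both channels above the limit and open symbols 1 channel. The probe labelled GABRB1, at 1.48 on the mediolateral array at HH30, is the only symbol past the dotted 2-fold lines. CHRNA2 lies to the right of 0 on all 4 arrays.

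Among inhibitory receptors, the GABA-A subunits were mixed along the anteroposterior axis and lay on the Cy5 side of the mediolateral array at HH30 in all 5 measured cases. GABRB1 gave background-subtracted signals of 1168 for Cy5 and 385 for Cy3 on that array, a 2.79-fold ratio after normalisation. Its ratios were -0.17, -0.32, 1.48 and -0.15. The array at HH30 thus stood alone, and on the other mediolateral array, at HH35, the signals were 618 and 702. The mean over both mediolateral arrays was 0.67 ± 0.28 (SE, n = 2), with adjusted p = 0.618 by limma. This SE, like those below, uses limma's estimate of spread shared by both axes. It is not the spread of the 2 arrays averaged, which lay far apart here. The file calls this probe GABRB1, but its description calls it a beta-4 subunit, and its gene ID is listed as GABRQ in a current RefSeq table, so which beta or theta subunit it reports is not settled here.

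GABRA6, known mainly from cerebellar granule cells, was above the limit in 1 channel at most.

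GABRG1, another gamma subunit, was represented by 2 probes that disagreed. The brighter gave 0.34, 0.03, 0.05 and 0.14, with signals of 29400 in the posterior and 21969 in the anterior pool at HH35. The dimmer probe gave -0.68 on that array, with only the anterior channel above the limit, so the direction at HH35 depends on the probe.

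Both glycine receptor subunits lay on the same side of every array as each other. GLRB, the beta subunit that binds the scaffold protein gephyrin, had ratios of -0.51, -0.36, 0.54 and -0.29. The signals were 478 posterior against 913 anterior at HH35, 1.42-fold apart after normalisation. At HH37 the normalised anterior signal exceeded the posterior one 1.29-fold, with only the anterior channel above the limit. The glycine receptor alpha 3-like feature followed with -0.38, -0.43, 0.39 and -0.16. It was 1.35-fold higher anteriorly at HH37, again with only the anterior channel above the limit. Mean anteroposterior ratios were -0.44 ± 0.19 and -0.41 ± 0.16 (SE, n = 2), with limma adjusted p = 0.186 and 0.162.

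Ionotropic glutamate receptors held the lowest anteroposterior ratio of all receptors. GRIN1, the subunit that every NMDA receptor contains, gave signals of 1007 in the posterior and 2417 in the anterior pool at HH35, and of 163 and 316 at HH37. The ratios were -0.88, -0.33, 0.53 and 0.08. After normalisation the anterior pool was higher by 1.84-fold at HH35 and by 1.25-fold at HH37. On the mediolateral array at HH30 the Cy5 pool was 1.44-fold higher. Its anteroposterior mean was -0.61 ± 0.17 (SE, n = 2) with limma adjusted p = 0.0779, above the threshold of 0.05. The limma adjusted p moved with the processing. It was 0.232 with plain background subtraction, 0.283 in the deposited series values and 0.0125 with median centring. The contrast of the axes was -0.91, with adjusted p = 0.389, the lowest among the receptors. The authors' deposited table gave anterior over posterior ratios of 1.80 and 1.27 for it at the 2 stages.

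The AMPA subunits, which carry fast excitatory transmission, lay on the same side as GRIN1 on the anteroposterior array at HH35 and the mediolateral array at HH30. GRIA4 had ratios of -0.59, -0.34, 0.47 and -0.10, with a 1.51-fold higher anterior signal at HH35. Its anterior signal was 1.26-fold higher at HH37, where only the anterior channel was above the limit. GRIA2, the subunit that makes AMPA receptors impermeable to calcium, stood at -0.43, 0.08, 0.45 and -0.12. At HH37 the sign for GRIA2 differed from that of GRIA4. The anteroposterior means were -0.46 ± 0.17 for GRIA4 and -0.17 ± 0.18 for GRIA2 (SE, n = 2), with limma adjusted p = 0.131 and 0.584.

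Kainate receptors went different ways. The kainate GluR7-like feature had ratios of 0.12, -0.61, 0.52 and -0.26, and changed side between the 2 arrays of each axis. At HH37 its signals were 1515 posterior and 2751 anterior, 1.53-fold apart after normalisation. The kainate-binding protein, known in birds from cerebellar Bergmann glia, stood at -0.02, -0.12, -0.25 and -0.23. Of the 29 genes measured on all 4 arrays it was the only one below 0 on each, though on 2 of them only the Cy3 channel was above the limit.

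**Figure D3:**
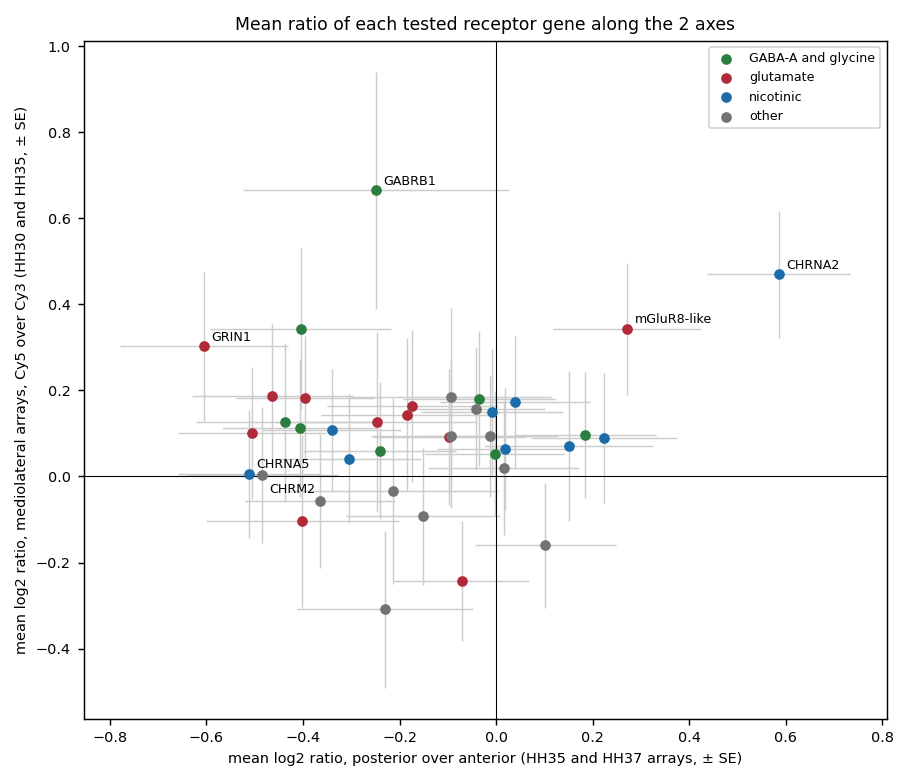
Mean log2 ratio of the 39 tested receptor genes over both anteroposterior arrays (horizontal, posterior over anterior) and both mediolateral arrays (vertical, Cy5 over Cy3). Bars are SE from limma, n = 2 arrays per axis. Colours mark GABA-A and glycine receptors together, glutamate receptors, nicotinic receptors, and all other genes of the rule. Most points lie left of 0 and above 0. GRIN1 at -0.61 lies furthest left, CHRNA2 at 0.59 furthest right and the probe labelled GABRB1, at 0.67, at the top.

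Metabotropic glutamate receptors were on the Cy5 side of the mediolateral array at HH30 in 6 of 6 measured cases, with ratios from 0.23 to 0.50. GRM5, a group I receptor that couples to phospholipase C, was lower posteriorly at HH35, at -0.32. At HH37 it was not above the limit, though its ratio there enters the fit. The anteroposterior mean was -0.40 ± 0.14 (SE, n = 2), with limma adjusted p = 0.134.

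GRM3, a group II receptor that lowers cyclic AMP, had ratios of -0.15, -0.66, 0.32 and -0.52. Its signals at HH37 were 275 posterior and 649 anterior, and its 2 mediolateral arrays stood on opposite sides of 0. GRM7, a group III receptor of presynaptic terminals, ran the same way at -0.06, -0.31, 0.50 and -0.21. The mGluR8-like feature, also of group III, differed from both. It stood at 0.43, 0.11, 0.49 and 0.19, above 0 on all 4 arrays, with anteroposterior and mediolateral means of 0.27 ± 0.15 and 0.34 ± 0.15 (SE, n = 2; limma adjusted p = 0.304 and 0.644).

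Nicotinic subunits lay on both sides of the anteroposterior axis. CHRNA2, an alpha subunit of neuronal nicotinic receptors, had the highest posterior ratio of all receptors and the lowest adjusted p. It gave signals of 1502 posterior against 1117 anterior at HH35, and 1802 against 1600 at HH37. The ratios were 0.75, 0.42, 0.43 and 0.51, all toward Cy5. After normalisation the posterior pool was 1.69-fold higher at HH35 and 1.34-fold at HH37. The anteroposterior mean was 0.59 ± 0.15 and the mediolateral mean 0.47 ± 0.15 (SE, n = 2), with limma adjusted p = 0.056 and 0.52. The contrast of the axes was 0.12, with adjusted p = 0.951. The Cy5 channel was higher whichever pool it held, and a dye effect of this probe cannot be told apart from a difference between the pools.

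CHRNA4 and CHRNB2 form the most common heteromeric nicotinic receptor of the brain. CHRNA4 stood at 0.42, 0.02, 0.06 and 0.12, and CHRNB2 at 0.49, -0.19, 0.19 and -0.05. Both were thus higher posteriorly at HH35, by 1.34-fold and 1.41-fold, and neither was so by more than 1.02-fold at HH37. Their anteroposterior means of 0.22 ± 0.15 and 0.15 ± 0.17 (SE, n = 2) had limma adjusted p = 0.39 and 0.635.

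CHRNA5, an accessory subunit, lay on the opposite side from CHRNA2. Its ratios were -0.61, -0.42, 0.16 and -0.14, with signals of 183 posterior and 389 anterior at HH35. The anterior signal was 1.33-fold higher at HH37, where only the anterior channel was above the limit. The mean was -0.51 ± 0.15 (SE, n = 2; limma adjusted p = 0.0803). CHRNA7, which forms homomeric channels with a high calcium permeability, stood at -0.46 at HH35, 1.37-fold higher in the anterior pool, and was not above the limit at HH37. CHRNA6, CHRNB4 and the muscle subunits CHRND and CHRNG had both channels above the limit on 2 arrays at most, and their ratios on measured arrays ran from -0.35 to 0.25. The 9 named markers of muscle had median ratios of 0.04, 0.06, 0.03 and 0.17, and their part in the values of the muscle subunits was not tested.

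The muscarinic receptors were lower in the posterior pool at HH37 in all 3 measured cases. CHRM2, which couples to inhibitory G proteins, had ratios of -0.32, -0.65, 0.19 and -0.18. Its signals were 112 posterior and 294 anterior at HH37, 1.57-fold apart after normalisation. The anteroposterior mean of CHRM2 was -0.48 ± 0.16 (SE, n = 2; limma adjusted p = 0.104). CHRM4, of the same coupling, stood at 0.05, -0.36, 0.08 and -0.26, and CHRM3, which couples to phospholipase C, at 0.10, -0.29, 0.34 and -0.15. For these 2 the anterior lean was seen at HH37 and not at HH35. CHRM5 was measured on 2 arrays, at -0.02 and 0.05.

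Of the monoamine receptors, ADRA1A, an alpha-1 adrenergic receptor coupled to phospholipase C, changed side most between the anteroposterior arrays. It gave 37666 posterior and 27337 anterior at HH35, and 7915 and 13796 at HH37. The ratios were 0.34, -0.77, 0.11 and -0.18. After normalisation the anterior signal was thus 1.70-fold higher at HH37, and the posterior one 1.26-fold higher at HH35. The mean of -0.21 ± 0.22 (SE, n = 2; limma adjusted p = 0.582) averages over these opposite values. ADRA2A, which lowers cyclic AMP, stood at 0.18 at HH35 and at 0.63 on the mediolateral array at HH30, a 1.55-fold higher Cy5 signal. On the other 2 arrays only its Cy3 channel was above the limit. ADRA1B and the serotonin receptor HTR4, which raises cyclic AMP, had no array with both channels above the limit for the probes used. A dimmer second probe of ADRA1B had both above it on the anteroposterior array at HH35. It gave -0.34 there, where the probe used gave 0.01. The dopamine receptor D3-like feature, named after a receptor that lowers cyclic AMP, gave 0.25, -0.22, -0.03 and 0.07. For the second of these only the anterior channel was above the limit.

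The 2 genes included by wording behaved as follows. DNAJC14, a chaperone that binds dopamine receptors, stood at 0.17, -0.63, -0.35 and -0.27, and the NMDA-like 1A feature at -0.59, -0.14, -0.12 and 0.00. Both were thus on the Cy3 side of the mediolateral array at HH30, where 30 of the 33 measured receptors proper were on the Cy5 side.

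Between the arrays of 1 axis, most receptors had the lower ratio on the later one. From HH35 to HH37 on the anteroposterior axis, 21 of 31 receptors measured on both had a lower ratio, against 54.9% of features, with a median change of -0.31 against -0.04. From HH30 to HH35 on the mediolateral axis, 27 of 34 had a lower ratio, against 50% of features, with a median change of -0.30. Of those 34, 19 went from the Cy5 to the Cy3 side, which 21.6% of features did. Since each stage is 1 array, stage and array cannot be told apart. Along the anteroposterior axis, 14 of 31 receptors were higher anteriorly on both arrays, against 34.9% of features. Of the 29 measured on all 4 arrays, CHRNA2, CHRNA4, GABRG1 and the mGluR8-like feature were above 0 on every one. For GABRG1 this held for the brighter probe only, the dimmer one giving -0.68 on the anteroposterior array at HH35. The share of all features above 0 on every array was not counted. A dye effect of these probes cannot be told apart from a difference between the pools.

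The medians of the neuronal markers had the same sign as those of the receptors on all 4 arrays. The signs were also the same for markers of endothelium, with medians of -0.01, -0.28, 0.17 and -0.01. On the HH35 arrays those lay near the medians of all features, -0.01 and -0.02, so their signs there say little. Genes that anchor or traffic receptors had medians of -0.12, -0.33, 0.08 and -0.19. On both HH35 arrays the receptors' median was close to that of all features. The 12 markers of maturing neurons had median ratios of -0.42, -1.47, 0.23 and -0.42, beside the receptors' -0.06, -0.32, 0.23 and -0.05. On the anteroposterior axis all 12 lay below 0, and 5 passed the limma test as higher anteriorly, led by MAP1B at -1.66 and SYT1, the calcium sensor of synaptic vesicles, at -1.17. The 15 markers of neural progenitors had medians of 0.53, -0.38, -0.19 and -0.14. In pooled tissue a smaller share of neurons and less RNA per neuron cannot be told apart, and the part of these shifts in the receptors' ratios was not tested.

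Proteins that anchor or traffic receptors gave 3 calls, which depended on the processing. Of 25 tested receptor-associated genes, 3 were higher anteriorly by limma on the anteroposterior axis, against 2.61% of features in that direction, and none posteriorly. Among them were NETO2, an auxiliary subunit of kainate receptors, and LIN7C, a scaffold protein. NETO2 stood at -0.76 and -0.64 at the 2 stages, and LIN7C at -0.91 and -0.44. Their means of -0.70 ± 0.14 and -0.68 ± 0.16 (SE, n = 2) had limma adjusted p = 0.0334 and 0.0472. NSF, an ATPase that binds GRIA2, did not pass, at -0.48 ± 0.14 with limma adjusted p = 0.0846. The median of the 25 was -0.23. With plain background subtraction or the deposited series values no feature passed on this axis, and so none of these genes did.

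Of 24 tested genes of transmitter synthesis and transport, 0 passed, against 2.75% of all features on the anteroposterior axis, and 9 had an unadjusted p under 0.05, against 23.3% of features. The median of the 24 was -0.02, with 10 above 0 and 14 below. Among the 4 with the smallest p, GAD1, GLUL and ABAT had lower ratios at HH37 than at HH35. GAD1, which makes GABA, stood at -0.20 and -0.93. GLUL, the glutamine synthetase of glia, stood at -0.22 and -1.17, and ABAT, which breaks GABA down, at -0.31 and -0.74. Limma adjusted p ran from 0.0897 to 0.106 for these 3. On the posterior side, TH and DBH, enzymes of catecholamine synthesis, had means of 0.47 and 0.41, and the noradrenaline transporter SLC6A2 one of 0.38. Limma adjusted p ran from 0.138 to 0.159 for them. They were not among the 4 with the smallest p and were picked after their values were seen. TH and SLC6A2 were not above the limit at HH37, though their ratios there enter the fit.

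Levels of 3 nicotinic subunits differed by more than 1 on the log2 scale between the arrays. CHRNA4 stood at log2 levels of 9.08, 11.69, 9.16 and 11.67, CHRNA2 at 9.51, 11.47, 9.18 and 11.90, and CHRNA6 at 6.40, 8.34, 6.71 and 8.44, the third of these values not being above the limit. All 3 were high on the anteroposterior array at HH37 and the mediolateral array at HH35, and low on the others. These are the array pairs that resembled each other most over all features, and CHRND and the mGluR8-like feature had the same order by smaller differences. For each of these 3 genes the 2 arrays of HH35 were further apart than 2-fold, so none of the values can be read as a change with stage.

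From the anteroposterior array at HH35 to that at HH37, 4 of 31 receptors were at least 2-fold higher and 8 at least 2-fold lower, where 22.7% of features were higher and 22.7% lower. From the mediolateral array at HH30 to that at HH35, 2 of 34 were at least 2-fold higher, CHRNA2 and CHRNA4, and 5 lower, where 17.5% of features were higher and 17.8% lower. By limma with 1 residual degree of freedom, 0 of 39 receptors and 0% of features passed either stage comparison. No receptor had an unadjusted p under 0.05 in either, and 562 and 482 features did.

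Few receptors differed from both HH35 arrays by more than those arrays differed from each other and by more than 1.5-fold. At HH30 this held for 3 of 34 receptors, against 14.5% of features. CHRNB2 stood at 11.18 against 12.08 and 11.94 at HH35, and GRM7 at 9.25 against 10.59 and 10.23, both lower at HH30. The NMDA-like 1A feature, at 8.57 against 7.49 and 7.18, was higher. At HH37 it held for 1 of 31, against 18.6% of features: the mGluR8-like feature stood at 13.74 against 12.30 and 12.79.

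**Figure D4:**
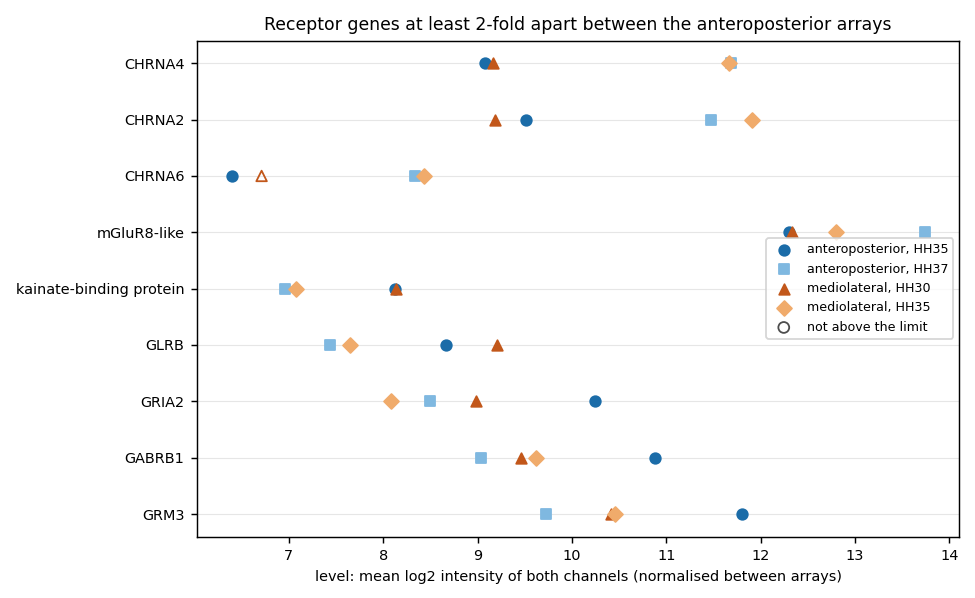
Level of 9 of the 12 receptor genes at least 2-fold apart between the anteroposterior arrays, as mean log2 intensity of both channels after scaling between arrays, 1 symbol per array and gene (open: not above the limit). CHRNA4, CHRNA2 and CHRNA6 are high on the anteroposterior array at HH37 and the mediolateral array at HH35, and the 2 arrays of HH35 stand apart for most genes shown.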

How the data were processed

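RNA pools of chick tectum were compared on 4 two-colour arrays of 45220 spots. The deposited spot tables give each spot's intensity in linear units, not normalised, and the percent of saturated pixels, per the file headers. Other deposited columns are a spot flag per the file headers and, in the authors' table, a signed fold change. The authors' deposited table also gives a ratio per probe, and the deposited series values are log2 of such ratios, with their normalisation not given in the sources used here. These values run as Cy3 over Cy5. After turning they correlated with the ratios computed here at r from 0.724 to 0.848 across probes, with a median of -0.13 on the anteroposterior array at HH37. Agilent Feature Extraction is named by the submitters' processing notes, though the columns are those of GenePix.

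Background was corrected by normexp (offset 50) on mean foreground and median background, and ratios were normalised by loess (span 0.3, with no weight on control spots). The tools were limma 3.58.1 in R 4.3.3, Python 3.11.15 with pandas 2.3.3 and numpy 2.4.6, and matplotlib 3.10.9. The planned Feature Extraction columns were replaced by these. Probes were measured at 2.6 SD over background in at least 1 channel, unless marked not found. The limma fit took features measured on 2 or more arrays, with a coefficient for each axis, which left 2 residual degrees of freedom. Adjustment was by Benjamini-Hochberg at 0.05. The fit used the ratio on every array as computed, also where a probe was not above the limit. Each SE is limma's, from 1 spread per gene estimated over both axes and drawn toward that of other features. It is therefore the same for both axes of a gene, and can be smaller than the spread of the arrays averaged. Arrays of an axis are different stages, so the SE includes any stage difference. Only 4 arrays limit the precision. Repeated control spots varied by an SD of 0.108 to 0.131 in log2 ratio. Levels are mean log2 intensities after Aquantile scaling, fitted with 1 coefficient per stage. Where 1 channel was not above the limit, a fold took it at the higher of its own value and the lowest signal above the limit. Such a fold is an estimate and not a bound. The fit was tested on simulated data.

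Names came from the files and a RefSeq table, used for names only, since no genome build is given. Among the probes, 6 carried a wording of the rule in another letter case and were left out. Named genes were those past any test or 2-fold, up to 4 of each class by brightness, and up to 4 per further list by smallest p. Some of these genes, included in the counts, are not reported here by name. Other members were accounted for by counts and ranges, and those further given by value, such as GRM5 and CHRNA7, were picked after their values were seen. So were TH, DBH and SLC6A2 among the genes of transmitter synthesis and transport. The members and lists were chosen with earlier results of these data known. Alternatives were plain subtraction, an offset of 16, median centring, the series values, no filter, both channels required, the mean of a gene's probes, another variance model, a 1.5-fold threshold, leaving out each array, and leaving unmeasured arrays out of the fit, an addition made once the data had been seen.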

Additional observations from a re-analysis of the deposited data

Results flagged for a closer look

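For 4 receptors with both channels above the limit, the 2 arrays of 1 axis stood on opposite sides of 0 by at least 0.25 each. These differences were not tested, since each stage is 1 array. The share of all features that met the same limits was not counted, so the 4 stand without a background. On the mediolateral axis, GLRB stood at 0.54 at HH30 and -0.29 at HH35, the kainate GluR7-like feature at 0.52 and -0.26, and GRM3 at 0.32 and -0.52. On the anteroposterior axis, ADRA1A stood at 0.34 at HH35 and -0.77 at HH37.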

How the results depend on the processing

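No paired analysis was possible because each group is 1 array with no repeated pool. Under median centring instead of loess, 6 receptors passed on the anteroposterior axis, all anterior, among them CHRM2, CHRNA5, GRIA4, GRIN1 and the glycine receptor alpha 3-like feature. That setting called 4291 of 30305 features, against 832 with loess. With both channels required, 1259 of 22635 features were called. Requiring both channels, 1 passed, CHRNA2. Leaving out either mediolateral array gave 0 on the anteroposterior axis. Leaving out an array of the axis tested leaves that axis with a single array, so only means are given for such fits. The anteroposterior mean of ADRA1A was -0.77 without the array at HH35 and 0.34 without that at HH37. The mediolateral mean of GABRB1 was 1.48 without the array at HH35 and -0.15 without that at HH30. Receptors past 2-fold numbered 1 with median centring and 1 in the series values on the anteroposterior array at HH35, and 2 with plain subtraction, 4 with median centring and 5 in the series values at HH37. On the mediolateral array at HH35 the series values gave 2. The share of all features past 2-fold was not counted under these settings, so these counts stand without a background. At 1.5-fold the counts were 5 of 39, 7 of 33, 3 of 35 and 0 of 38 on the 4 arrays, against 8.08%, 11.4%, 2.67% and 2.22% of all features. The receptors' median was -0.21 at HH35 and -0.51 at HH37 with median centring, and -0.19 at HH37 with no filter. Over all features the anteroposterior test called 0 with plain subtraction or the series values, 388 at an offset of 16, and 438 with no filter. It called 619 without the mediolateral array at HH30 and 916 without that at HH35. Dim probes limit the ratios, since 21 of 33 receptors measured on the anteroposterior array at HH37 and 24 of 38 on the mediolateral array at HH35 had both channels above the limit. The causes of these shifts were not tested.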

Other observations

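Further receptor genes carry descriptions outside the naming rule and were looked up after the values were known, from their gene IDs or accessions. GABRA3, an alpha subunit of GABA-A receptors, stood at -0.72, -0.45, 0.27 and 0.03, in the order anteroposterior HH35, anteroposterior HH37, mediolateral HH30 and mediolateral HH35. Its anteroposterior mean of -0.59 ± 0.15 (SE, n = 2) had limma adjusted p = 0.0568. GABRA5 and GABRE, 2 further GABA-A subunits, stood at 0.82 and 0.72 on the mediolateral array at HH30, on the same side as the GABA-A subunits of the rule. GRIA1, an AMPA subunit, stayed near 0, at -0.23, -0.00, -0.13 and 0.01. The dopamine receptor DRD5 gave -0.41, -0.63, 0.25 and -0.12, and the serotonin receptor HTR1B -0.20, -0.47, 0.41 and -0.03. DRD5 had limma adjusted p = 0.0815 on the anteroposterior axis, with only the anterior channel above the limit at HH37.

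Some unnamed features with receptor-like descriptions had levels that ran like those of CHRNA2 and CHRNA4. A feature described as like the dopamine D1A receptor stood at log2 levels of 8.73, 11.81, 8.42 and 11.63, and one like a D4B receptor at 7.79, 10.12, 7.33 and 9.61. One like the beta-2 adrenergic receptor stood at 7.64, 10.10, 7.49 and 9.61. All 3 were high on the anteroposterior array at HH37 and the mediolateral array at HH35. Over all features this was the pair of arrays least often 2-fold apart. The 3 are among 16 receptor-like probes outside the rule, and not all of the 16 ran this way. Another feature, described as like a D4 receptor, was the only one of these probes past 2-fold on an array, at -1.03 on the anteroposterior array at HH37. Its levels ran the other way, at 10.96, 9.99, 11.41 and 10.03.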
